A study of Homo sapiens with 9 samples.

Results

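The genes described here encode voltage-gated sodium channels, voltage-gated calcium channels and NALCN, the sodium leak channel. They were chosen by symbol: the sodium channel alpha and beta genes (SCN followed by a number and A or B), the calcium channel genes whose symbols begin CACNA, CACNB or CACNG, and NALCN. This gave 32 genes among the 25084 of the deposited table: 8 sodium channel alpha genes, 4 sodium channel beta genes, 6 calcium channel alpha1 genes, 3 alpha2delta genes, 4 beta genes, 6 gamma genes and NALCN. RNA was sequenced from LAN5 cells, a neuroblastoma line with amplified MYCN, 72 h after siRNAs, short duplex RNAs that lead to the loss of a matching transcript, were delivered by electroporation. All 9 libraries came from this line and this delivery. They form 3 groups of 3 libraries: siCTR, which received a control siRNA; siMYCN, whose siRNA against MYCN is labelled siMYCN_2; and siHAND2, whose siRNA against HAND2 is labelled siHAND2_3. Each target was thus lowered with 1 siRNA label only. MYCN and HAND2 encode transcription factors, and the series asked which LAN5 genes depend on them.

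Voltage-gated sodium channels open when the membrane depolarizes and carry the upstroke of the action potential. One large alpha subunit forms the pore, and small beta subunits with an immunoglobulin fold adjust its gating and its place in the membrane. Voltage-gated calcium channels let calcium in during depolarization, which triggers transmitter and hormone release and feeds calcium signals to the nucleus. Their alpha1 subunit forms the pore, alpha2delta and beta subunits bring the L-type and N-type channels to the membrane, and most gamma proteins serve AMPA-type glutamate receptors rather than calcium channels. Neuroblastoma arises from the sympathetic nervous system, whose neurons and chromaffin cells use both families to fire and to release catecholamines.

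Levels are given as CPM, the reads of a gene after every library was brought to 1 common total. The steps between low values put the depth at 21.1 M to 32.7 M reads per library, so that 1 CPM stood for 21.1 to 32.7 reads and counting error alone gave it a coefficient of variation of 17.5% to 21.8%. The siRNAs lowered their targets in part: MYCN averaged 1842 ± 54.2 CPM in siCTR and 1289 ± 47.0 (70.0%) in siMYCN, and HAND2 averaged 501 ± 13.7 CPM in siCTR and 272 ± 7.65 (54.2%) in siHAND2 (n = 3, SD). HAND2 was higher in siMYCN than in siCTR, at 571 ± 15.9 CPM (log2 fold change 0.19, limma, adjusted p = 0.00183). MYCN was also lower in siHAND2, at 914 ± 48.4 CPM, which was below its level in siMYCN (log2 fold change -0.50, limma, adjusted p = 6.21e-07). All 8 sympathoadrenal markers examined reached 1 CPM in at least 3 libraries. No marker of the Schwann, leukocyte, endothelial or muscle lists did so, and the 1 epithelial marker in the table, EPCAM, lay between 2.79 and 3.95 CPM in all 9 libraries. The 8 sympathoadrenal markers summed to 2109 to 2246 CPM in siCTR, 2681 to 2764 in siMYCN and 2175 to 2285 in siHAND2. DBH was lower in every siHAND2 library (127 to 137 CPM) than in any siCTR library (243 to 277). So were DDC (108 to 112, 130 to 134) and TH (1.18 to 1.59, 2.70 to 3.37). STMN2 (315 to 359, 164 to 186) and GAP43 (58.3 to 65.3, 33.7 to 37.3) were higher in every siHAND2 library. CHGA, CHGB and ELAVL4 overlapped between these groups. The 7 fibroblast markers summed to 286 to 290.4 CPM in siCTR, 343 to 346 in siMYCN and 617 to 699 in siHAND2. Of these 7, COL1A1 stayed under 1 CPM in all 9 libraries, and THY1 measured 60.02 to 71.7 CPM in siCTR and 52.8 to 59.9 CPM in siHAND2. The other 5 were higher in every siHAND2 library than in any siCTR library: PDGFRA (116 to 125 CPM in siCTR, 309 to 359 in siHAND2), PDGFRB (87.6 to 93.3, 164 to 198), LUM (8.99 to 9.25, 49.8 to 58.2), COL1A2 (1.53 to 1.80, 14.3 to 18.3) and DCN (0.374 to 0.522, 10.2 to 11.7). The library siHAND2 replicate 3 stood farther from the other 2 of its group (chi-square per degree of freedom over genes 8.12 and 8.87) than any other replicates from each other (2.90 to 5.76). The part of these marker genes in the channel results below was not tested. In bulk RNA, fewer cells with a transcript and less of it per cell cannot be told apart.

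Of the 32 channel genes, 23 reached 1 CPM in at least 3 libraries and were tested, and all 23 would also pass with any 1 of the 3 groups left out. The other 9 included CACNA1E, CACNA1H, CACNA2D4, CACNG1, CACNG2, CACNG5, SCN7A and SCN11A. The highest value of any of these 9 in any library was 1.19 CPM. The 23 tested genes had a median level of 17.2 CPM over all libraries, against 23.1 CPM for all 14495 tested genes.

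To compare genes in the control cells, CPM was divided by the length of the main transcript in kilobases. On this scale (CPM per kb, mean ± SD, n = 3 siCTR libraries) the 4 highest genes all encoded auxiliary subunits. The alpha2delta gene CACNA2D1 led at 31.2 ± 1.08 CPM per kb, followed by the gamma gene CACNG4 at 13.0 ± 0.486. CACNB3 (9.17 ± 0.324) and CACNA2D2 (8.99 ± 0.316) came next and lay within 1 SD of each other. The pore genes were led by the N-type calcium channel gene CACNA1B (7.90 ± 0.209) and the sodium channel gene SCN3A (6.91 ± 0.252). SCN3B, the leading sodium beta gene, measured 4.52 ± 0.0302 CPM per kb. SCN8A (3.60 ± 0.333), SCN2A (3.48 ± 0.269) and CACNB1 (3.46 ± 0.139) were not separated by their SDs, and CACNG7 (3.13 ± 0.181), CACNB4 (2.31 ± 0.101) and SCN9A (2.28 ± 0.101) followed. At the low end of the tested genes, NALCN (0.157 ± 0.0245), SCN1A (0.137 ± 0.0168) and CACNA1G (0.119 ± 0.00749) were each under 0.2 CPM per kb. 

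**Figure D1:**
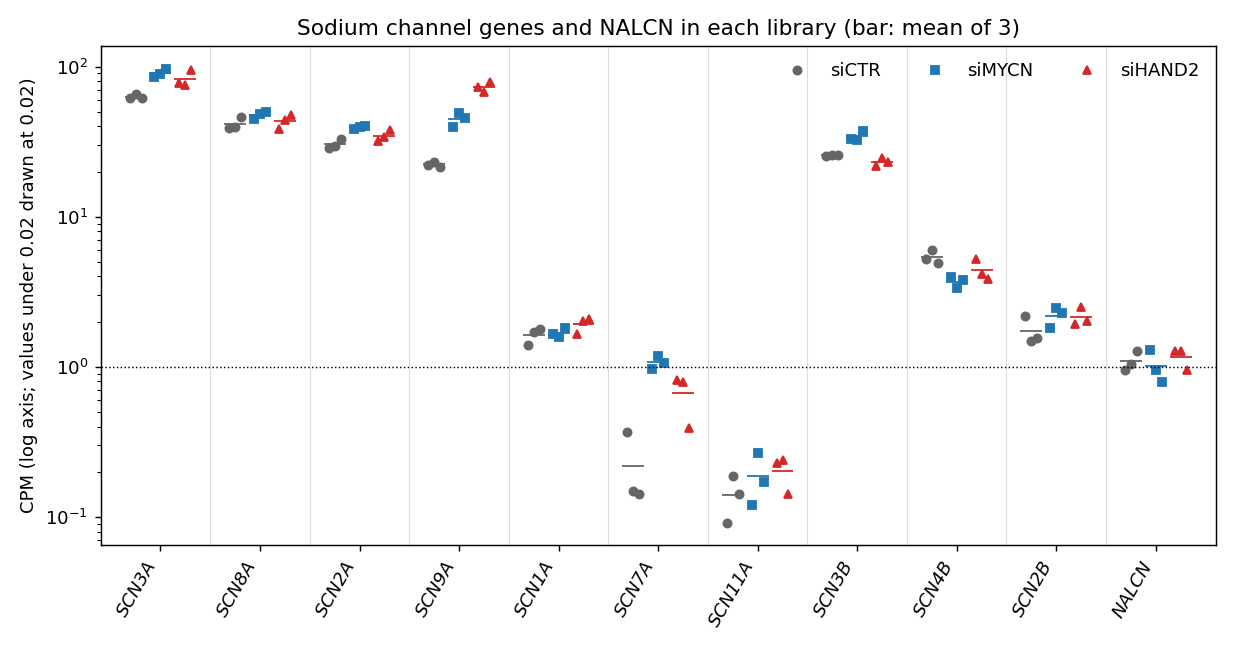
CPM of sodium channel genes and of NALCN (log axis) in each of the 9 libraries, with a bar at the mean of the 3 libraries of siCTR (grey circles), siMYCN (blue squares) and siHAND2 (red triangles); the dotted line marks 1 CPM. SCN9A shows 3 separate levels, with means of 22.3, 44.6 and 73.4 CPM, while SCN8A and SCN1A overlap between all groups.

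More of the tested channel genes rose than fell in each knockdown against siCTR. In siHAND2 both HAND2 and MYCN were lower than in siCTR. In siMYCN against siCTR, 12 of 23 rose and 1 fell (limma on log2(CPM + 1), Benjamini-Hochberg adjusted p under 0.05), and 10 did not pass. The background of this comparison was 35.9% of all 14495 tested genes, 24.5% higher and 11.4% lower. In siHAND2 against siCTR, 10 of 23 rose, 1 fell and 12 did not pass, beside a background of 29.9% (18.1% higher and 11.8% lower). In siHAND2 against siMYCN, which tests the difference between the knockdowns directly, 5 of 23 were higher and 9 lower in siHAND2, beside a background of 26.9% (11.4% higher and 15.5% lower). The 3 libraries of each group did not overlap for 15 of the 23 genes in siMYCN against siCTR (14 higher and 1 lower, with 49.5% of all tested genes not overlapping, 33.4% higher and 16.1% lower), for 11 in siHAND2 against siCTR (9 higher and 2 lower, with 42.4%, 25.8% and 16.6%) and for 14 in the direct comparison (5 higher and 9 lower, with 38.7%, 17.1% and 21.6%). The median log2 fold change of the 23 genes was 0.22, 0.16 and -0.09 in these 3 comparisons, against 0.06, 0.04 and -0.01 over all tested genes. Both comparisons with siCTR use the same 3 control libraries, so they are not independent of each other.

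How libraries were scaled moved the balance of rises and falls. Over all genes, 68.3% of the calls in siMYCN were rises on the deposited scale, against 51.1% with median-ratio rescaling and 49.3% with quantile normalization. In siHAND2 these shares were 60.6%, 47.0% and 47.8%. Among the channel genes, the split was 10 higher and 1 lower in siMYCN, and 7 higher and 2 lower in siHAND2, under each of the 2 other scalings. Without siHAND2 replicate 3, 14 rose and 1 fell in siMYCN, 9 rose and 0 fell in siHAND2, and 4 were higher and 11 lower in the direct comparison.

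**Figure D2:**
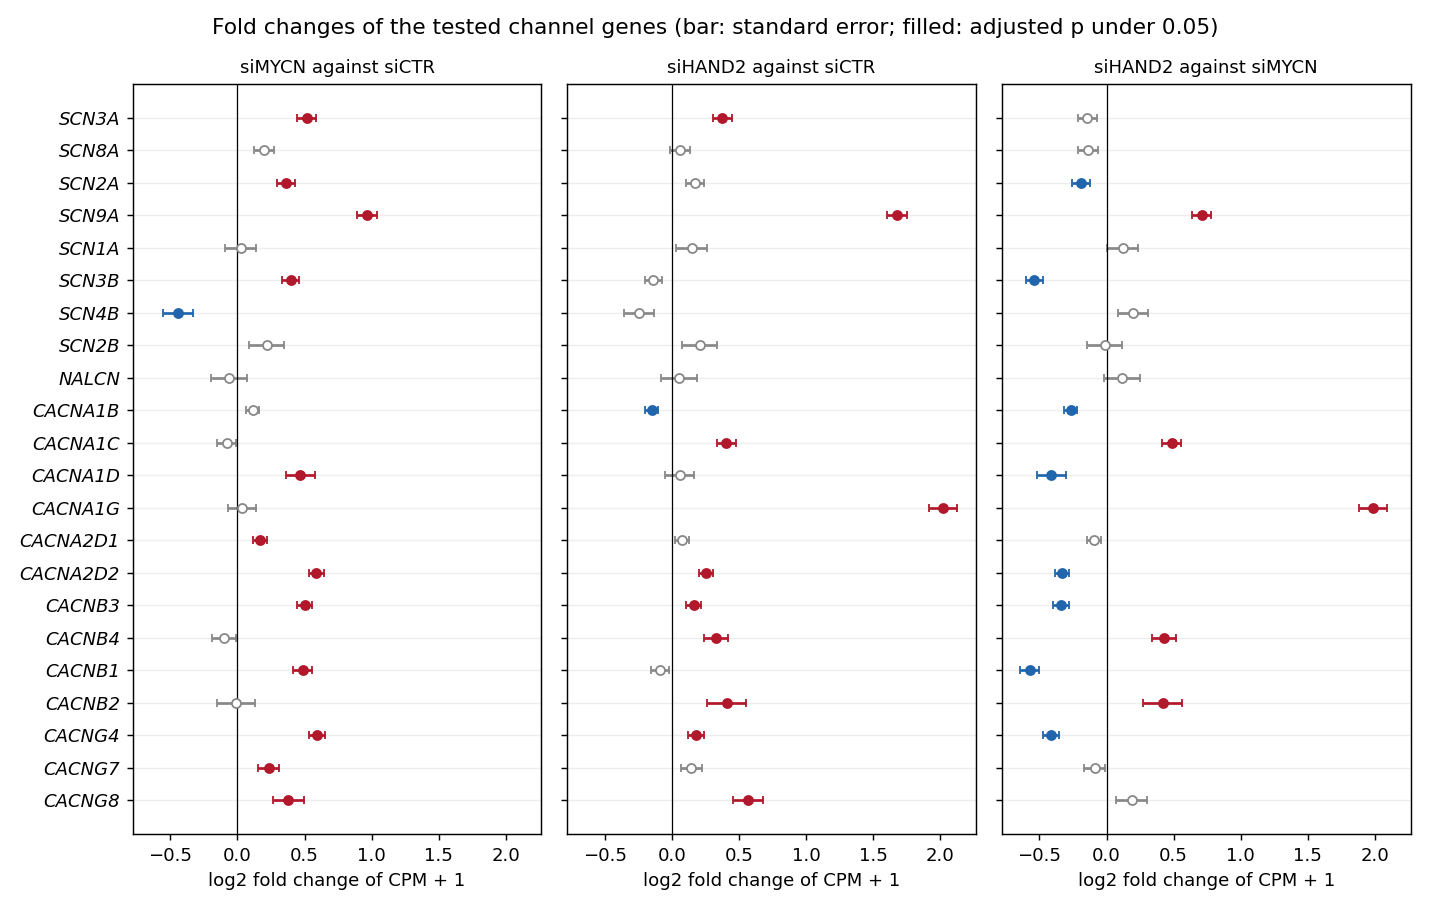
Log2 fold change of CPM + 1 for 22 of the 23 tested channel genes in the 3 comparisons, with standard errors of limma; filled red points rose, filled blue points fell and open grey points did not pass an adjusted p of 0.05. CACNA1G (2.02) and SCN9A (1.68) stand apart in siHAND2 against siCTR, and 8 genes lie below 0 with a call in the direct comparison.

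Among the tested sodium channel alpha genes, SCN9A had the largest log2 fold change of CPM + 1 in each comparison with siCTR. Its channel amplifies small depolarizations in pain-sensing and sympathetic neurons. SCN9A (chromosome 2, 166195185 to 166376001, GRCh38) measured 22.2, 23.3 and 21.3 CPM (siCTR), 39.5, 48.8 and 45.6 CPM (siMYCN) and 72.7, 68.1 and 79.4 CPM (siHAND2). The 3 groups did not overlap, and every siHAND2 library lay above every siMYCN library. Its mean was 2.00-fold that of siCTR in siMYCN and 3.30-fold in siHAND2. The log2 fold changes were 0.97 (standard error 0.07, limma, adjusted p = 8.9e-08) and 1.68 (standard error 0.07, adjusted p = 6.35e-11). The direct comparison gave 0.71 (standard error 0.07, adjusted p = 1.27e-06). Among all 14495 tested genes, the rise of SCN9A ranked 36 in siMYCN and 32 in siHAND2. All 3 calls held under every alternative and with any 1 library left out.

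SCN3A, a sodium channel gene best known from the fetal brain, was the most abundant alpha gene in siCTR. It measured 61.9, 65.5 and 61.3 CPM (siCTR), 85.3, 89.6 and 96.8 CPM (siMYCN) and 77.6, 74.8 and 94.1 CPM (siHAND2). All 6 knockdown libraries lay above the 3 controls, while siMYCN and siHAND2 overlapped. In limma, the log2 fold change against siCTR was 0.52 for siMYCN (adjusted p = 3.71e-05) and 0.37 for siHAND2 (adjusted p = 0.000836). The direct difference of -0.14 did not pass (adjusted p = 0.149, 95% confidence interval -0.29 to 0.01), and it passed without siHAND2 replicate 3, the highest of its group (-0.24). SCN2A, an alpha gene of the axon initial segment, went from 28.6, 29.8 and 33.2 CPM in siCTR to 38.4, 39.3 and 40.4 CPM in siMYCN, with no overlap (0.36, adjusted p = 0.000556). In siHAND2 it measured 31.7, 34.2 and 37.6 CPM, which overlapped siCTR (0.17, adjusted p = 0.0639). That value passed without siCTR replicate 3 (0.23) or siHAND2 replicate 1 (0.23), and with a replicate block in the fit (0.17, limma, adjusted p = 0.015). The siHAND2 libraries lay below the siMYCN libraries for SCN2A (-0.19, limma, adjusted p = 0.0463). That call was lost without any 1 of siCTR replicate 2, siHAND2 replicates 1 and 2 and the 3 siMYCN libraries (-0.21 to -0.13). It was also lost after both other scalings (-0.17 in each), with no filter, with no intensity trend and in the fit of these 2 groups alone.

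SCN8A, whose channel drives repetitive firing in mature neurons, overlapped between the groups. Its values were 38.9, 39.9 and 46.0 CPM (siCTR), 44.9, 48.5 and 49.8 CPM (siMYCN) and 38.6, 44.2 and 47.3 CPM (siHAND2). The siMYCN difference was 0.20 with an adjusted p of 0.0503 (limma), just outside the threshold. It passed without siCTR replicate 3 (0.27), siMYCN replicate 1 (0.24), siHAND2 replicate 1 or siHAND2 replicate 3 (both 0.20), and also in the fit of these 2 groups alone (0.20), with precision weights (0.21) and with a filter of 5 CPM (0.20). In siHAND2 the difference was 0.06 (adjusted p = 0.60). SCN1A, a gene of inhibitory interneurons, stayed between 1.41 and 2.09 CPM in all 9 libraries, and none of its 3 comparisons passed.

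Of the alpha genes under the filter, SCN7A encodes an atypical channel that senses sodium levels. It measured 0.367, 0.150 and 0.142 CPM (siCTR), 0.967, 1.19 and 1.06 CPM (siMYCN) and 0.822, 0.797 and 0.390 CPM (siHAND2), so that all 6 knockdown libraries exceeded the 3 controls. The gap between the lowest siHAND2 library (0.390 CPM) and the highest siCTR library (0.367 CPM) was within counting error, which is 17.5% to 21.8% already at 1 CPM. With no filter on low values limma gave a log2 fold change of 0.77 for siMYCN (adjusted p = 0.000219) and 0.45 for siHAND2 (adjusted p = 0.0139). SCN11A, a gene of pain-sensing neurons, stayed between 0.0918 and 0.269 CPM.

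These changes altered the make-up of the sodium channel alpha transcripts. As a share of their summed CPM per kb, SCN9A held 12.9 ± 0.734% in siCTR, 18.4 ± 1.29% in siMYCN and 29.4 ± 0.922% in siHAND2 (n = 3, SD). SCN3A held 39.1 ± 1.71%, 39.9 ± 0.895% and 35.2 ± 1.36%, and remained the gene with the highest share in each group. SCN8A held 20.3 ± 1.43%, 16.6 ± 0.0694% and 14.7 ± 1.09%, and SCN2A 19.6 ± 1.05%, 18.0 ± 0.612% and 15.4 ± 0.672%. The summed alpha level was 17.7 ± 0.521 CPM per kb in siCTR, 24.9 ± 1.41 in siMYCN and 25.6 ± 2.25 in siHAND2. A share can fall because another gene rose: the SCN8A share was lower in each knockdown although its mean CPM was not.

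**Figure D3:**
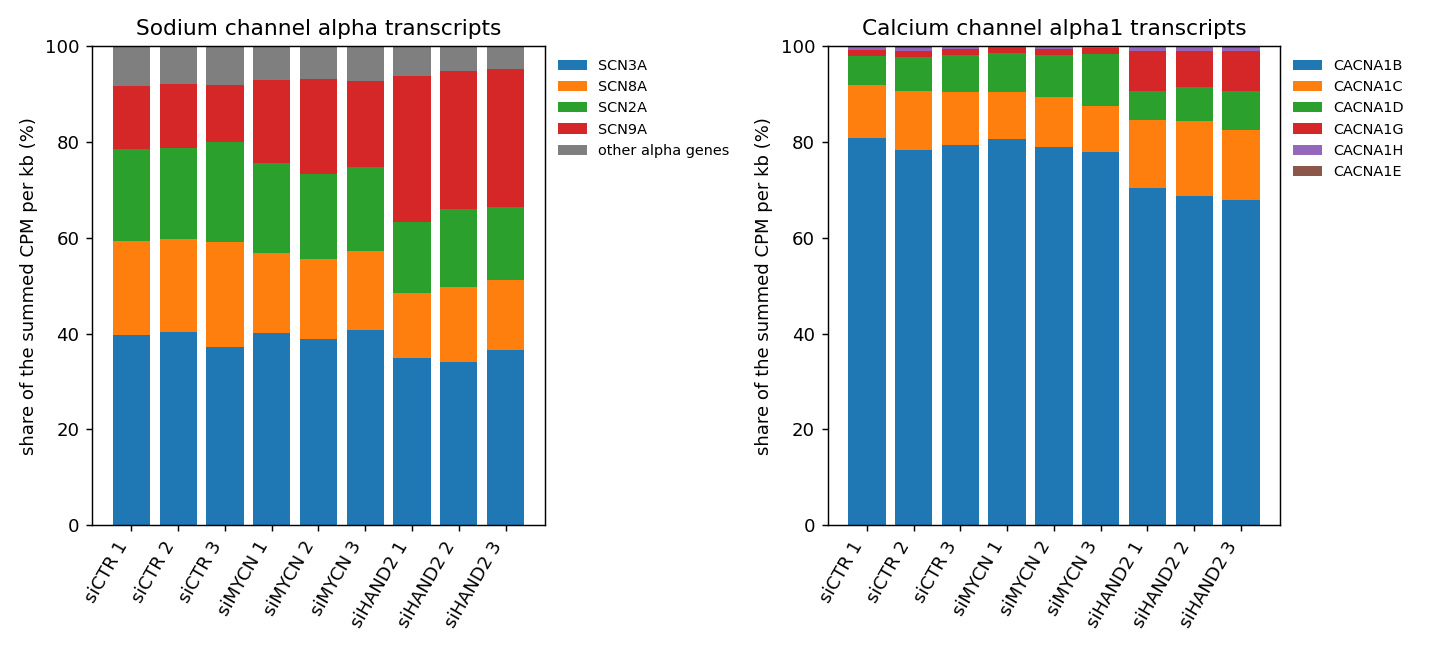
Share of each gene in the summed CPM per kb (%) of the sodium channel alpha genes (left) and calcium channel alpha1 genes (right), one stacked bar per library, with the least abundant alpha genes drawn together. The SCN9A share grows from 12.9% in siCTR to 29.4% in siHAND2, and the CACNA1G share from 1.20% to 8.15%.

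The promoter of SCN9A is printed because this gene has a large change in both knockdowns, and those of CACNA1B and CACNA1C because they hold the motifs searched. These 2 genes were picked after the search. MYC-family proteins bind the E-box CACGTG, and HAND2 with its E-protein partners binds E-boxes such as CATCTG. The 250 bases before each annotated start were searched on both strands for CACGTG, for CATCTG, which reads CAGATG on the other strand, and for the general form CANNTG, which includes both. RefSeq windows (GRCh38.p14) were matched for 19 of the 32 genes, 33 windows in all. CACNA1G, the channel gene with the largest change in siHAND2, had no matched window and was not searched. Capitals mark every CANNTG.
SCN9A, chr2:166375945-166376194, minus strand: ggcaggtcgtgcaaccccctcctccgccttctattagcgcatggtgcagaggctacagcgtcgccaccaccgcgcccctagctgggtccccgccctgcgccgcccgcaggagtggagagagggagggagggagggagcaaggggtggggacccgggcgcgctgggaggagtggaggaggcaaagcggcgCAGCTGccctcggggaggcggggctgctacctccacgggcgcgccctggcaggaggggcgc
CACNA1B, chr9:137877532-137877781, plus strand: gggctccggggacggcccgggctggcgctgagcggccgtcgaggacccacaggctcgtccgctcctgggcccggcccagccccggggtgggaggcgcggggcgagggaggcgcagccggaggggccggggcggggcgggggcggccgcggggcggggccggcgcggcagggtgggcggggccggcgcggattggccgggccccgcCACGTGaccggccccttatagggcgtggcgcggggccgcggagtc
CACNA1C, chr12:2052737-2052986, plus strand: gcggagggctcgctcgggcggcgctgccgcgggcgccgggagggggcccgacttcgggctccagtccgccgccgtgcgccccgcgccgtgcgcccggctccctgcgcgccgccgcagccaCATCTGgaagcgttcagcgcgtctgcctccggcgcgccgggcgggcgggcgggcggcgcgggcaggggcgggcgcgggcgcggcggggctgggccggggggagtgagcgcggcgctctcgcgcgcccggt
The SCN9A window holds 1 CANNTG, beginning 61 bases before the start, and neither of the other motifs. The gene CACNA1B was the only channel gene with CACGTG, 45 bases before the start, and 1 of 33 windows (3.03%) held it, against 6.34% of all 35116 windows. CATCTG was in 7 of 33 windows (21.2%, against 12.2% of all windows), those of CACNA1C, CACNB2, CACNB4, NALCN and SCN7A, and in CACNA1C it begins 130 bases before the start. Windows of 1 gene are not independent of each other, and several of these 7 are alternative starts of CACNB2. CANNTG was in 21 of 33 windows (63.6%, against 61.8%). A match is a description of the letters, not a measured binding site.

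The sodium channel beta genes did not move together. SCN3B, which slows inactivation and was the most abundant of them, measured 25.5, 25.8 and 25.8 CPM (siCTR), 33.0, 32.2 and 37.4 CPM (siMYCN) and 21.9, 24.7 and 23.1 CPM (siHAND2). The 3 groups did not overlap: siMYCN lay above siCTR and siHAND2 below it. It rose by 0.40 in siMYCN (limma, adjusted p = 0.000165), its difference of -0.14 in siHAND2 did not pass (adjusted p = 0.113), and the knockdowns differed by -0.54 (adjusted p = 8.04e-06). The siHAND2 value passed after median-ratio rescaling (-0.18, adjusted p = 0.0406). SCN4B, a beta gene linked to resurgent sodium current, was the only channel gene called lower in siMYCN. It measured 5.23, 5.99 and 4.89 CPM (siCTR), 3.95, 3.34 and 3.77 CPM (siMYCN) and 5.20, 4.14 and 3.83 CPM (siHAND2). It fell by 0.44 on the log2 scale in siMYCN (adjusted p = 0.00514), where no library overlapped siCTR, and the value of -0.25 in siHAND2 did not pass (adjusted p = 0.105). Without siHAND2 replicate 1 that value was -0.35 and passed, as it did after quantile normalization (-0.32). SCN2B ranged from 1.50 to 2.51 CPM over all libraries with no call. Within the summed CPM per kb of the beta genes, SCN3B held 71.7 ± 1.53% in siCTR, 79.2 ± 1.02% in siMYCN and 70.4 ± 3.76% in siHAND2 (n = 3, SD).

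NALCN carries a background sodium leak that sets resting excitability. Its transcript was near 1 CPM: 0.948, 1.05 and 1.28 CPM (siCTR), 1.29, 0.959 and 0.788 CPM (siMYCN) and 1.28, 1.27 and 0.957 CPM (siHAND2). The groups overlapped and no comparison passed (log2 fold change -0.06 in siMYCN, 95% confidence interval -0.34 to 0.22, and 0.05 in siHAND2, -0.23 to 0.34). Its large partner proteins were far more abundant as transcripts. UNC79 averaged 61.2 ± 3.36 CPM in siCTR and rose to 80.8 ± 3.19 in siMYCN (0.39, limma, adjusted p = 1.58e-05) and 92.1 ± 2.61 with siHAND2 (0.58, adjusted p = 1.96e-07). UNC80 averaged 18.3 ± 1.49 CPM and rose to 22.5 ± 2.13 in siMYCN (0.28, adjusted p = 0.0141) and 23.1 ± 2.08 with siHAND2 (0.32, adjusted p = 0.00745). The UNC80 call in siMYCN was lost without siCTR replicate 1 (0.22), siMYCN replicate 2 (0.24) or siMYCN replicate 3 (0.24), and after quantile normalization (0.20). Both rises of UNC79 held under every alternative.

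**Figure D4:**
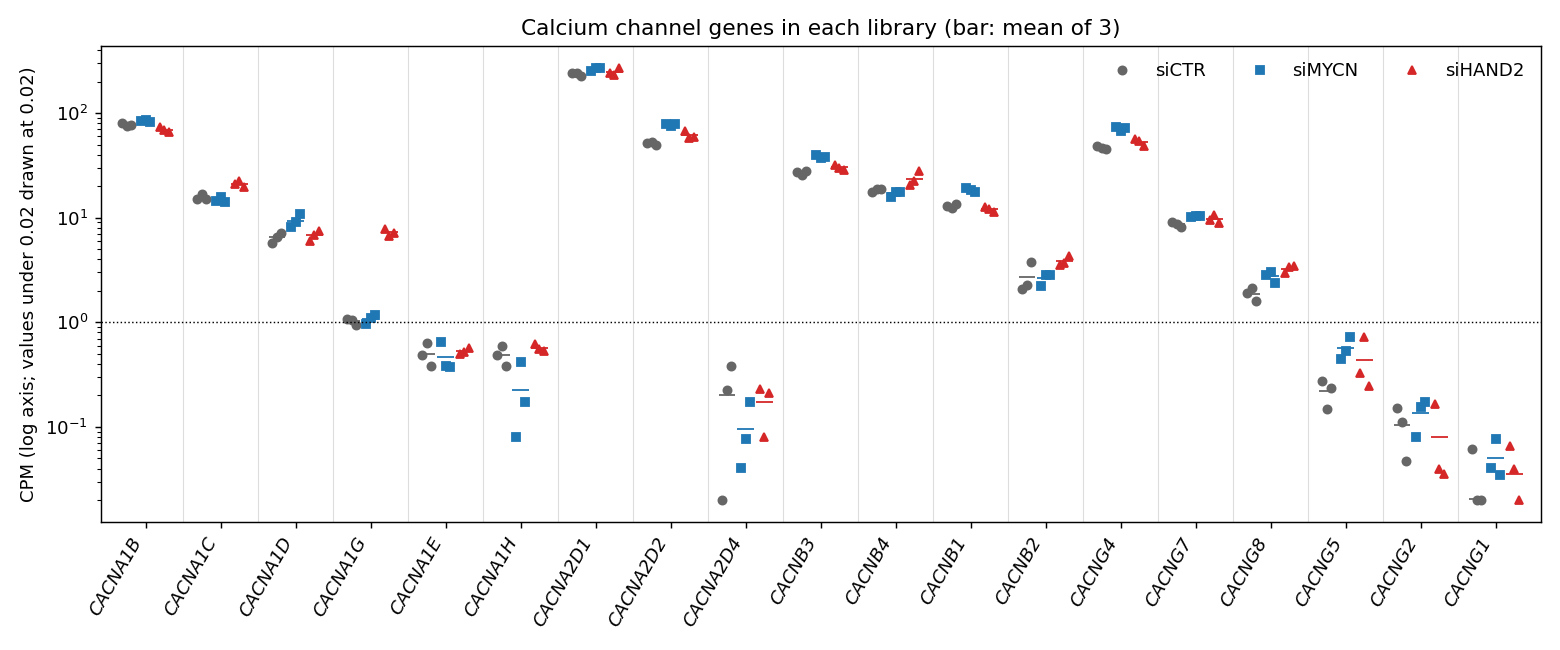
CPM of each calcium channel gene (log axis; values under 0.02 CPM are drawn at 0.02) in each of the 9 libraries, with a bar at the mean of the 3 libraries of siCTR (grey circles), siMYCN (blue squares) and siHAND2 (red triangles); the dotted line marks 1 CPM. CACNA1G sits near 1 CPM in the 6 siCTR and siMYCN libraries and between 6.73 and 7.86 CPM in siHAND2.

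Among the calcium channel pore genes, CACNA1G rose only in siHAND2. It encodes a T-type channel, which opens at low voltage and shapes pacemaker and burst firing. CACNA1G (chromosome 17, 50560715 to 50627474) measured 1.07, 1.05 and 0.949 CPM (siCTR), 0.967, 1.09 and 1.17 CPM (siMYCN) and 7.86, 6.73 and 7.09 CPM (siHAND2). The siCTR and siMYCN libraries overlapped, and each siHAND2 library was above all of them. Its mean in siHAND2 was 7.07-fold that of siCTR and 6.73-fold that of siMYCN. The log2 fold change of CPM + 1, which understates the change of a gene near 1 CPM, was 2.02 in siHAND2 (standard error 0.11, limma, adjusted p = 5.49e-10). Over the alternatives and the fits with 1 library left out, this value ranged from 1.02, with a pseudocount of 5, to 2.79. In siMYCN the log2 fold change was 0.03 (adjusted p = 0.831, 95% confidence interval -0.19 to 0.26), and the knockdowns differed by 1.99 (adjusted p = 3.88e-10). By absolute change CACNA1G ranked 18 of the 14495 genes tested in siHAND2. The other T-type gene measured, CACNA1H, stayed under 0.63 CPM in all 9 libraries.

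The L-type genes CACNA1C and CACNA1D, whose channels couple depolarization to hormone release and gene expression, each changed in 1 knockdown. CACNA1C measured 15.0, 16.8 and 15.1 CPM (siCTR), 14.5, 15.7 and 14.0 CPM (siMYCN) and 21.0, 22.4 and 19.8 CPM (siHAND2). It rose in siHAND2 with no overlap (0.41, limma, adjusted p = 0.000388), differed by -0.08 in siMYCN (adjusted p = 0.405) and was higher in siHAND2 than in siMYCN (0.49, adjusted p = 6.7e-05). CACNA1D measured 5.76, 6.48 and 7.18 CPM (siCTR), 8.06, 9.18 and 10.9 CPM (siMYCN) and 5.96, 6.87 and 7.49 CPM (siHAND2). It rose in siMYCN (0.47, adjusted p = 0.00321), differed by 0.06 in siHAND2 (adjusted p = 0.735) and was lower in siHAND2 than in siMYCN (-0.41, adjusted p = 0.00978). That last call was lost without siMYCN replicate 3, the highest library (-0.31). Both genes overlap a decapping gene on the other strand, CACNA1C with DCP1B (mean 17.9 CPM) over 33750 bases and CACNA1D with DCP1A (67.3 CPM) over 18624 bases. Whether reads were assigned by strand is not given in the sources used here.

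CACNA1B, the N-type channel gene of transmitter release, was the most abundant pore gene in siCTR, while SCN3A was higher in both knockdowns. It measured 79.6, 75.6 and 76.8 CPM (siCTR), 84.7, 85.0 and 81.7 CPM (siMYCN) and 74.0, 69.4 and 65.4 CPM (siHAND2), with no overlap between any 2 groups. The siMYCN difference of 0.11 did not pass (limma, adjusted p = 0.0815). At the same size it passed without siHAND2 replicate 3, in the fit of these 2 groups alone and with a replicate block. CACNA1B fell in siHAND2 by 0.15 on the log2 scale (limma, adjusted p = 0.0282). That call was lost without any 1 of the 3 siCTR libraries, siHAND2 replicate 2 or siHAND2 replicate 3 (-0.17 to -0.11) and with no intensity trend. The difference between the knockdowns was -0.27 (adjusted p = 0.000624) and held under every alternative. Of the summed CPM per kb of the alpha1 genes, CACNA1B held 79.5 ± 1.33% in siCTR, 79.2 ± 1.37% in siMYCN and 68.9 ± 1.27% in siHAND2, CACNA1C 11.5 ± 0.814%, 9.92 ± 0.414% and 14.9 ± 0.79%, and CACNA1G 1.20 ± 0.0698%, 1.15 ± 0.109% and 8.15 ± 0.506% (SD, n = 3). The alpha1 sum itself was 9.94 ± 0.0977 CPM per kb in siCTR, 10.8 ± 0.168 in siMYCN and 10.3 ± 0.452 in siHAND2. CACNA1E, the R-type gene, stayed between 0.377 and 0.644 CPM.

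The alpha2delta subunits are extracellular proteins that bring alpha1 subunits to the membrane, and those encoded by CACNA2D1 and CACNA2D2 bind the drug gabapentin. CACNA2D2 measured 52.0, 52.5 and 49.2 CPM (siCTR), 78.1, 75.5 and 79.0 CPM (siMYCN) and 66.7, 58.2 and 59.3 CPM (siHAND2). The 3 groups did not overlap, with siHAND2 between the others. It rose by 0.59 in siMYCN (limma, adjusted p = 6.76e-07) and 0.26 with siHAND2 (adjusted p = 0.00197), and was lower in siHAND2 than in siMYCN (-0.33, adjusted p = 0.000191). CACNA2D1 measured 241, 239 and 226 CPM (siCTR), 253, 271 and 269 CPM (siMYCN) and 240, 233 and 272 CPM (siHAND2). It rose by 0.17 in siMYCN (adjusted p = 0.0238), where no library overlapped siCTR. The call was lost after both other scalings (0.11 in each) and with no intensity trend. It was also lost without siCTR replicate 3 (0.14), siMYCN replicate 2 (0.15) or siMYCN replicate 3 (0.15). In siHAND2 the value was 0.07 (adjusted p = 0.325). The knockdowns differed by -0.09 (adjusted p = 0.226), which passed without siHAND2 replicate 3 (-0.16). CACNA2D4 stayed under 0.4 CPM.

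The 4 cytoplasmic beta genes, whose proteins bind the alpha1 subunit from inside and carry it to the surface, fell into 2 patterns. CACNB1 and CACNB3 were higher in siMYCN. CACNB3 measured 27.2, 25.8 and 27.7 CPM (siCTR), 39.8, 37.2 and 38.4 CPM (siMYCN) and 32.2, 30.1 and 28.4 CPM (siHAND2), with a rise of 0.50 in siMYCN by limma (adjusted p = 6.42e-06). CACNB1 measured 12.8, 12.4 and 13.4 CPM (siCTR), 19.1, 18.4 and 17.7 CPM (siMYCN) and 12.8, 12.0 and 11.4 CPM (siHAND2), with a rise of 0.49 in siMYCN (adjusted p = 4.48e-05) and a value of -0.09 in siHAND2 (adjusted p = 0.357). Both were lower in siHAND2 than in siMYCN, by -0.57 for CACNB1 (adjusted p = 7.59e-06) and -0.34 for CACNB3 (adjusted p = 0.000305). CACNB3 also rose in siHAND2 against siCTR (0.16, limma, adjusted p = 0.045). That call was lost without any 1 library other than siHAND2 replicate 3 (0.12 to 0.18) and after both other scalings (0.12 and 0.14). It was also lost with no filter, with no intensity trend and in the fit of these 2 groups alone. CACNB2 and CACNB4 were higher in siHAND2 only. CACNB4 measured 17.5, 18.7 and 19.0 CPM (siCTR), 15.9, 17.6 and 17.6 CPM (siMYCN) and 20.5, 22.2 and 27.8 CPM (siHAND2), a rise of 0.33 against siCTR (adjusted p = 0.0106) and 0.43 against siMYCN (adjusted p = 0.00163). CACNB2 measured 2.08, 2.29 and 3.77 CPM (siCTR), 2.22, 2.86 and 2.81 CPM (siMYCN) and 3.55, 3.70 and 4.29 CPM (siHAND2). It was called against siCTR (0.41, adjusted p = 0.043) although siCTR replicate 3 lay within the siHAND2 range. The call was lost without siCTR replicate 1 (0.29), siCTR replicate 2 (0.34), siHAND2 replicate 2 (0.43), siHAND2 replicate 3 (0.35) or siMYCN replicate 2 (0.41), and after both other scalings (0.38 and 0.33). The CACNB2 call against siMYCN (0.42, limma, adjusted p = 0.0415) was lost without siHAND2 replicate 2 or 3 or any siMYCN library (0.34 to 0.47). It was also lost with no filter and with no intensity trend. The summed beta level was 15.4 ± 0.599 CPM per kb in siCTR, 20.7 ± 0.396 in siMYCN and 17.1 ± 0.372 with siHAND2 (n = 3, SD), of which CACNB3 held 59.6 ± 0.996%, 63.5 ± 0.98% and 60.1 ± 2.72%.

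The 3 tested gamma genes encode proteins that escort AMPA-type glutamate receptors, and all 3 rose in siMYCN. CACNG4 measured 48.6, 46.2 and 45.2 CPM (siCTR), 74.1, 66.9 and 71.7 CPM (siMYCN) and 56.6, 53.6 and 48.6 CPM (siHAND2). Its rise of 0.59 in siMYCN (limma, adjusted p = 1.41e-06) held under every alternative, and siHAND2 was lower than siMYCN (-0.42, adjusted p = 4.9e-05). In siHAND2 it rose by 0.18 against siCTR (adjusted p = 0.032), and the lowest siHAND2 library, at 48.64 CPM, lay just above the highest siCTR library, at 48.60 CPM. This call was lost without siCTR replicate 2 (0.17), siCTR replicate 3 (0.15), siHAND2 replicate 1 (0.13) or siHAND2 replicate 2 (0.17). It was also lost after both other scalings (0.14 and 0.15) and with no intensity trend. CACNG8 measured 1.90, 2.13 and 1.61 CPM (siCTR), 2.82, 3.03 and 2.40 CPM (siMYCN) and 2.96, 3.39 and 3.44 CPM (siHAND2). It rose in both knockdowns, by 0.38 (adjusted p = 0.0144) and 0.57 (adjusted p = 0.00114), and the siMYCN call was lost without siCTR replicate 3 (0.31) or siMYCN replicate 2 (0.33). CACNG7 measured 9.11, 8.61 and 8.11 CPM (siCTR), 10.1, 10.4 and 10.3 CPM (siMYCN) and 9.47, 10.5 and 8.93 CPM (siHAND2), with a rise of 0.23 in siMYCN (adjusted p = 0.0283). That call was lost without siCTR replicate 2, siCTR replicate 3 or any siMYCN library (0.20 to 0.25). It was also lost after both other scalings (0.18 and 0.16) and with no filter. The other 3 gamma genes, CACNG1 (the skeletal muscle subunit), CACNG2 and CACNG5, stayed under 0.75 CPM. CACNG5 measured 0.275, 0.150 and 0.237 CPM (siCTR), 0.443, 0.537 and 0.720 CPM (siMYCN) and 0.329, 0.717 and 0.248 CPM (siHAND2), so siMYCN alone lay clear of siCTR. With no filter on low values limma gave CACNG5 0.36 in siMYCN (adjusted p = 0.0337) and 0.22 in siHAND2 (adjusted p = 0.214).

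Several of these genes are neighbours, which the choice by symbol did not use. On chromosome 2, SCN3A (165087522 to 165204067), SCN2A (165194993 to 165392310), SCN1A (165984641 to 166149214), SCN9A and SCN7A (166403573 to 166611482) lie in this order. Of these, SCN3A, SCN2A and SCN9A rose in siMYCN, SCN7A was under the filter with higher values in both knockdowns, and SCN1A (0.03, limma, adjusted p = 0.893) had no call. SCN3A and SCN2A overlap by 9075 bases on opposite strands. The antisense gene SCN1A-AS1 covers SCN1A and SCN9A on the other strand and averaged 0.39 CPM with siCTR, 0.53 with siMYCN and 1.40 with siHAND2, against 46.8 CPM for SCN9A and 1.75 CPM for SCN1A over all 9 libraries. Its part in the SCN9A values was not tested. The alpha genes are similar in sequence, and how reads fitting several genes were counted is not given in the sources used here. On chromosome 17, CACNG5, CACNG4 and CACNG1 are adjacent, with 0.221, 46.7 and 0.0205 CPM on average in siCTR. SCN4B and SCN2B lie 9.9 kb apart on chromosome 11, and CACNG7 and CACNG8 19.1 kb apart on chromosome 19.

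Lists of genes that work with the channels were examined in the same fit. Of the sodium channel partners, 5 of 10 tested rose and 2 fell in siMYCN (median log2 fold change 0.22), and 3 rose and 4 fell in siHAND2 (median -0.012), beside medians over all genes of 0.06 and 0.04. Of all genes, 24.5% were called higher and 11.4% lower in siMYCN, and 18.1% and 11.8% in siHAND2. ANK3, the ankyrin that anchors sodium channels at the axon initial segment, went from 12.9 ± 0.77 CPM in siCTR to 19.97 ± 1.38 in siMYCN (0.59, limma, adjusted p = 7.21e-06) and 24.3 ± 1.22 with siHAND2 (0.86, adjusted p = 9.62e-08; SD, n = 3). FGF14, an intracellular factor that binds the alpha subunit, rose by 0.27 and 0.33. NFASC, an adhesion molecule of the same segment, rose by 0.49 in siMYCN and differed by 0.06 in siHAND2 (adjusted p = 0.361). CNTN1, an adhesion molecule that binds beta subunits, fell by 0.69 in siHAND2 (adjusted p = 4.11e-07) and differed by 0.16 in siMYCN (adjusted p = 0.055).

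Of the 12 calcium channel partners tested, 8 rose and 0 fell in siMYCN (median 0.28, and 8 higher and 0 lower at an unadjusted p under 0.05), and 3 rose and 1 fell in siHAND2 (median 0.12), beside 35.9% and 29.9% of all genes called in either direction. STAC, an adaptor that keeps L-type channels at the surface, averaged 37.8 ± 1.27 CPM with siCTR, 45.7 ± 3.13 with siMYCN and 17.4 ± 1.74 with siHAND2. It rose by 0.27 in siMYCN (limma, adjusted p = 0.00729) and fell by 1.08 on the log2 scale with siHAND2 (adjusted p = 7.4e-09). CACHD1, related to alpha2delta proteins, rose by 0.54 and 0.45. TSPAN13 rose by 0.55 in siHAND2 (adjusted p = 0.000173) with a value of 0.08 in siMYCN (adjusted p = 0.542).

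Of 18 tested genes of calcium stores, pumps and exchangers, 7 rose and 0 fell in siMYCN (median 0.13, and 9 higher and 0 lower at an unadjusted p under 0.05), while 4 rose and 6 fell in siHAND2 (median -0.012). The backgrounds were again 24.5% higher and 11.4% lower in siMYCN, and 18.1% and 11.8% in siHAND2. In the direct comparison 1 was higher and 8 were lower in siHAND2, beside 11.4% and 15.5% of all genes. The sodium-calcium exchanger gene SLC8A3 averaged 15.1 ± 1.63 CPM with siCTR, 25.1 ± 1.41 with siMYCN and 7.50 ± 0.973 with siHAND2. It rose by 0.70 in siMYCN (limma, adjusted p = 1.83e-05) and fell by 0.92 on the log2 scale with siHAND2 (adjusted p = 8.95e-07). SLC8A1, of the same family, fell by 0.64 on the log2 scale in siHAND2 (adjusted p = 2.84e-07), differed by -0.11 in siMYCN (adjusted p = 0.161) and was lower in siHAND2 than in siMYCN (-0.53, adjusted p = 2.01e-06). The calcium pump gene ATP2B4 rose by 0.38 and 0.57, and ITPR3, a calcium release channel gene of the endoplasmic reticulum, fell by 0.76 in siHAND2 (adjusted p = 4.97e-05). The sodium pump subunit gene ATP1B1 rose by 0.53 in siMYCN (adjusted p = 7.36e-06) and fell by 0.20 on the log2 scale in siHAND2 (adjusted p = 0.0211). The fall was lost without siCTR replicate 1 (-0.17), siCTR replicate 2 (-0.16) or siHAND2 replicate 2 (-0.15), and with no intensity trend.

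Calcium-activated kinases and phosphatases showed 5 rises and 1 fall in siMYCN and 2 rises and 3 falls in siHAND2 among 10 tested (medians 0.13 and -0.035), beside 35.9% and 29.9% of all genes called. The calcineurin genes PPP3CA and PPP3CB rose in siMYCN by 0.21 (limma, adjusted p = 0.00132) and 0.30 (adjusted p = 0.00128), and CAMKK1 fell by 0.45 on the log2 scale in siHAND2 (adjusted p = 0.00108). CAMK2D rose by 0.14 in siMYCN and 0.20 in siHAND2, and the siMYCN call was lost without siCTR replicate 1 (0.14) or siMYCN replicate 3 (0.13) and after both other scalings (0.084 and 0.081). REST and its partners repress neuronal genes, SCN2A among them, in cells that are not neurons. Of the 8 genes of that complex, 1 rose and 2 fell in siMYCN, and 2 rose and 0 fell in siHAND2 (medians 0.019 and 0.085, with 3 higher and 0 lower in siHAND2 at an unadjusted p under 0.05), counts near the 35.9% and 29.9% of all genes called. RCOR3 rose in both (0.25 and 0.21) and RCOR1 rose in siHAND2 (0.26, adjusted p = 0.00184). In siMYCN, KDM1A fell by 0.15 (adjusted p = 0.00832) and RCOR2 by 0.19 (adjusted p = 0.0191). The RCOR2 call was lost without siCTR replicate 2 (-0.16) or siMYCN replicate 2 (-0.18), and the RCOR3 call in siHAND2 without siCTR replicate 2 (0.16).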

How the data were processed

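The authors deposited 1 table of CPM values with a column per library, and every value column was matched to a sample by its name. Each column summed to 1000002.4 to 1000002.6, with a constant of 0.0001 in every value. STAR 2.5.1 and Partek are named in the submitters' processing notes. The same notes name hg19 and GRCh37, yet 91.4% of 17953 gene starts lay within 5000 bases of the GRCh38 start and 5.59% within 5000 of the GRCh37 start, so coordinates are given as GRCh38. The counting rule, strand use and filters are not given in the sources used here. Between 78.7% and 80.1% of low values were whole reads (within 0.02 of a step, up to 20 steps), under the 95% needed for a count test, so none was run.

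Genes that reached 1 CPM in 3 or more of the 9 libraries were fitted on log2(CPM + 1) with limma 3.58.1 (R 4.3.3), 1 mean per group and an intensity trend. Tests were two-sided with Benjamini-Hochberg adjustment over all 14495 genes and a threshold of 0.05. Nothing says that the replicates were separate cultures, so p-values measure only the spread between these libraries, which may be technical. Replicate pairs differed by more than counting noise (chi-square per degree of freedom 2.90 to 8.87, both values over 8 involving siHAND2 replicate 3). The fit was first tested on simulated data. Transcript lengths came from GENCODE 44 by symbol (the Ensembl canonical transcript, for SCN8A the longest coding one), and promoters from RefSeq. Channel genes past the filter are named, with up to 4 called genes per partner list, except that a few genes and the short list they belong to are not reported here. The 7 partner lists hold 79 genes, 74 of them in the table. The members and lists were chosen with earlier results of these data known. Alternatives were pseudocounts of 0.1 and 5, no filter, a filter of 5 CPM, median-ratio and quantile scaling, a fit of 2 groups, no trend, a replicate block, precision weights and each library left out.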

Additional observations from a re-analysis of the deposited data

Results flagged for a closer look

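No channel gene was called in both comparisons with siCTR in opposite directions, but partner genes were, and 4 are given here: they rose in siMYCN and fell in siHAND2, and the knockdowns also differed from each other (limma). The difference was -1.62 for SLC8A3, -1.35 for STAC, and -0.73 for ATP1B1. CAMK2B, a calcium-activated kinase gene named here because of this pattern, differed by -0.59. It averaged 15.8 ± 1.30 CPM with siCTR, 18.9 ± 1.59 with siMYCN and 12.2 ± 0.368 with siHAND2 (SD, n = 3).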

How the results depend on the processing

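The 10 alternatives and 9 fits with 1 library left out kept the direction of every called channel gene. The call held in every fit that tested the gene for 10 of the 13 genes called in siMYCN. The same was true for 7 of the 11 in siHAND2 and 11 of the 14 in the direct comparison. Of these, CACNG8 in siHAND2 was not tested under the 5 CPM filter. CACNA1G passed that filter only through its siHAND2 libraries (6.73 to 7.86 CPM), so that fit is no separate check of its calls. The number of channel genes lower in siHAND2 than in siCTR was 1, and it was 2 after median-ratio rescaling, 2 after quantile normalization, 0 with no intensity trend and 0 to 3 with 1 library left out. Quantile normalization gave 2333 genes higher in siMYCN over the whole table, against 3556. Partner genes lower in siMYCN numbered 5, and 8 after either rescaling, with 3 to 7 when 1 library was left out. Values near 0 without a call changed sign. After quantile normalization these were CACNA1D (-0.0050) and NALCN (-0.028) in siHAND2 and CACNA1G (-0.018), SCN1A (-0.035) and TSPAN13 (-0.0032) in siMYCN, and after median-ratio rescaling SCN1A (-0.011) and RCOR1 (-0.0014) in siMYCN. KDM1A in siHAND2 was -0.020 and -0.0093 after these 2 scalings, and CACNB2 in siMYCN was 0.057 with precision weights. With 1 library left out, CACNB2 lay between -0.13 and 0.18, NALCN between -0.16 and 0.020 and SCN1A between -0.039 and 0.067 in siMYCN. In siHAND2 CACNA1D lay between -0.014 and 0.13, SCN8A between -0.0061 and 0.14 and KDM1A between -0.0060 and 0.037. In the direct comparison SCN2B lay between -0.10 and 0.048 and UNC80 between -0.038 and 0.083. The cause of these changes was not tested. The correlation of deviations between libraries of the same replicate number was over 0.1 in 6 of 9 pairs (-0.04 to 0.31). Between libraries of different number it lay between -0.30 and 0.14. Not every library correlated best with one of its own number, and the labels do not say what a number shares. The main fit therefore held no term for the number, and what libraries of 1 number share is not known. With the replicate block the channel genes called were 14 higher and 1 lower in siMYCN, 11 higher and 1 lower in siHAND2, and 5 higher and 10 lower in the direct comparison; SCN8A in siMYCN was among those gained (adjusted p = 0.00396). Counting error, 17.5% to 21.8% at 1 CPM, limits NALCN and SCN1A, and it is larger still for genes far below 1 CPM.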
